A study of Mus musculus with 4 samples.

Results

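The cells described here are the dendritic cells of the late db/db library, in single-cell RNA-seq of pancreatic islet cells from mice. Dendritic cells take up antigen, carry it on MHC molecules and show it to T cells. In mice the conventional ones fall into cDC1, which depend on the transcription factors Irf8 and Batf3, bear Xcr1 and Clec9a and are known for presenting cell-associated antigen to CD8 T cells, and cDC2, which bear Sirpa and often Cd209a. On maturation both kinds raise the actin bundler Fscn1 and the chemokine receptor Ccr7, which guides them through lymph to the T cell zone of lymph nodes, where Ccl19 and Ccl21 are made. In islets of autoimmune-prone mice, dendritic cells and macrophages are the cells that present beta cell antigen.

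The members were chosen by measured values. A barcode of the late db/db library was taken if it had at least 1000 UMIs (unique molecular identifiers, each counting 1 captured transcript), 500 genes and at most 20% mitochondrial UMIs. It also needed at least 5 UMIs of H2-Ab1, a chain of MHC class II, and at least 2 UMIs in sum of the 6 dendritic genes Flt3, Xcr1, Clec9a, Fscn1, Cd209a and Ccl22. At most 2 UMIs of the macrophage complement genes C1qa, C1qb and C1qc were allowed, none of the B cell receptor chain Cd79a or the T cell receptor chain Cd3e, and less than 10% of UMIs from Ins1 and Ins2. The rule kept 108 barcodes of the 6301 that passed the quality filter in this library and of 20845 in all 4 libraries. Levels of the genes in the rule are given as a description and support nothing.

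The study sequenced islet cells of 4 groups of mice, with 1 library per group and no replicates, so that no test between groups was possible. The late db/db group was 98 days old, the late db/db group with intervention 98 days, the early db/db group 70 days and the normal control 98 days. All 4 libraries, the control included, carry the genotype label db/db(C57BL/KsJ), while the growth protocol names male C57BL/6 mice beside C57BL/ksJ-db (db/db) mice, which lack a working leptin receptor. The db/db mice were taken once hyperglycemic. The labels do not say what the intervention was, nor how many mice were pooled.

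The late db/db library held 120934779 UMIs in 7162 barcodes, within the 120934779 to 166034254 UMIs of the 4 libraries. It stood apart in its lymphoid content. Its B gate, of barcodes with at least 2 Cd79a UMIs, held 1944 barcodes (30.9%), against 7 (0.137%), 273 (5.69%) and 15 (0.324%) in the intervention, early and control libraries. Its T gate, of barcodes with at least 2 Cd3e UMIs, held 1207 (19.2%), against 3, 37 and 4. Ccl21a, a chemokine of lymph node stroma and lymphatic vessels, had 97437 UMIs in 1361 barcodes of late db/db, against 147 UMIs in the intervention library, 875 in early db/db and 0 in the control. The part of lymphoid tissue in the results that follow was not tested. Because each group is 1 library, age, stage and library cannot be told apart.

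The gate was passed step by step. Of 6301 barcodes, 2286 had enough H2-Ab1, 179 of these enough of the 6 dendritic genes, 172 few enough C1q UMIs, 122 no Cd79a and 108 no Cd3e, and the insulin limit removed none. Among cells just inside the limit on the 6 genes, the 14 with exactly 2 UMIs had a pooled Cd74 level of 14479 CPM (UMIs scaled to a common total), and the 17 just outside, with 1 UMI, had 10728 CPM. Summed macrophage markers stood at 3788 CPM in those 14 and 10155 CPM in those 17. For H2-Ab1, the 3 cells with 5 to 6 UMIs had 7950 CPM of Cd74, and the 14 outside with 3 to 4 UMIs had 2298 CPM. There were 7 cells with 1 to 2 C1q UMIs inside and 0 with 3 to 4 outside. Single UMIs of Cd79a kept out 9 cells and single UMIs of Cd3e kept out 3. CPM here relates the UMIs of a gene to all UMIs of a pool of cells, with mitochondrial genes and 7 islet hormone genes left out of the total.

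The label was checked on genes that the rule did not use. Zbtb46, a transcription factor of conventional dendritic cells, had 61 UMIs in 42 of 108 members, with at most 4 in a cell. It had 15 UMIs in 12 of 1944 cells of the B gate and 4 UMIs in 4 of 60 C1q cells. The C1q cells are barcodes with at least 5 C1q UMIs and under 10% hormone UMIs, a cut made after values were seen. Median depth was 15418.5 UMIs per member, 3735 per B gate cell and 10188.5 per C1q cell, so that shares of cells with a UMI lean toward the members, while pooled CPM does not. In CPM, Zbtb46 stood at 35.6 in members, 5.83 in C1q cells, 1.51 in the B gate and 1.64 in the T gate. The members thus stood above the other 3 pools. The receptor tyrosine kinase Kit stood at 99.1 CPM in members, against 4.38 in C1q cells, 4.65 in the B gate and 3.07 in the T gate. The protease inhibitor Cst3, abundant in cDC1, stood at 11044 CPM in members, against 2068, 578 and 405 in the same 3 pools. Of the members' 18949 Cst3 UMIs, 17312 were in the Xcr1/Clec9a subset, and its level was 2978 CPM in the Fscn1/Ccr7 subset, 775 CPM in the Cd209a subset and 885 CPM in the unassigned cells. Zbtb46, in contrast, stood at 35.5, 36.0, 37.8 and 33.1 CPM in the Xcr1/Clec9a, Fscn1/Ccr7, Cd209a and unassigned cells. Of 10 pan dendritic genes abundant enough to compare, 7 were at least 2-fold higher and 0 lower than in C1q cells (all genes: 11.0% higher). The 7 include Cd74, H2-Aa and H2-Eb1, which belong to class II presentation, as does H2-Ab1 of the rule. Against the B gate, 5 of 10 were higher (all genes: 16.7%) and 1, Cd83, was lower.

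Itgax, which codes for CD11c, did not separate members from C1q cells, with 103 CPM in members and 118 CPM in C1q cells. Macrophage genes did. Csf1r, the receptor for colony-stimulating factor 1, had 41 UMIs in 12 members and 774 UMIs in 52 of 60 C1q cells. Fcgr1 was at 0 in the members and had 38 UMIs in the C1q cells. Lyz2, lysozyme, stood at 263 CPM in members and 20354 CPM in C1q cells. Ptprc, which codes for the leukocyte antigen CD45, was seen in 103 of 108 members.

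Flt3, the receptor for the growth factor that sustains dendritic cells, was one of the genes that chose the cells. It was seen in 84 members, 49 of them among the 51 cells of the Xcr1/Clec9a subset.

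The members were split by whichever of 3 marker sums was highest in the cell with at least 2 UMIs. Xcr1 plus Clec9a led in 51 cells (47.2%, exact 95% interval 37.5 to 57.1%), Fscn1 plus Ccr7 in 43 (39.8%, 30.5 to 49.7%) and Cd209a in 4 (3.70%), and 10 (9.26%) stayed unassigned. Intervals here and below cover counting error only. Few cells carried both kinds of marker. Cells of the Xcr1/Clec9a subset had a median of 22592 UMIs, those of the Fscn1/Ccr7 subset 11126, those of the Cd209a subset 13408 and the unassigned 10515. H2-Ab1 per cell was also unequal, at 17, 172 and 445 UMIs (lowest, median, highest) in the Xcr1/Clec9a subset and 5, 29 and 133 in the Fscn1/Ccr7 subset.

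**Figure D1:**
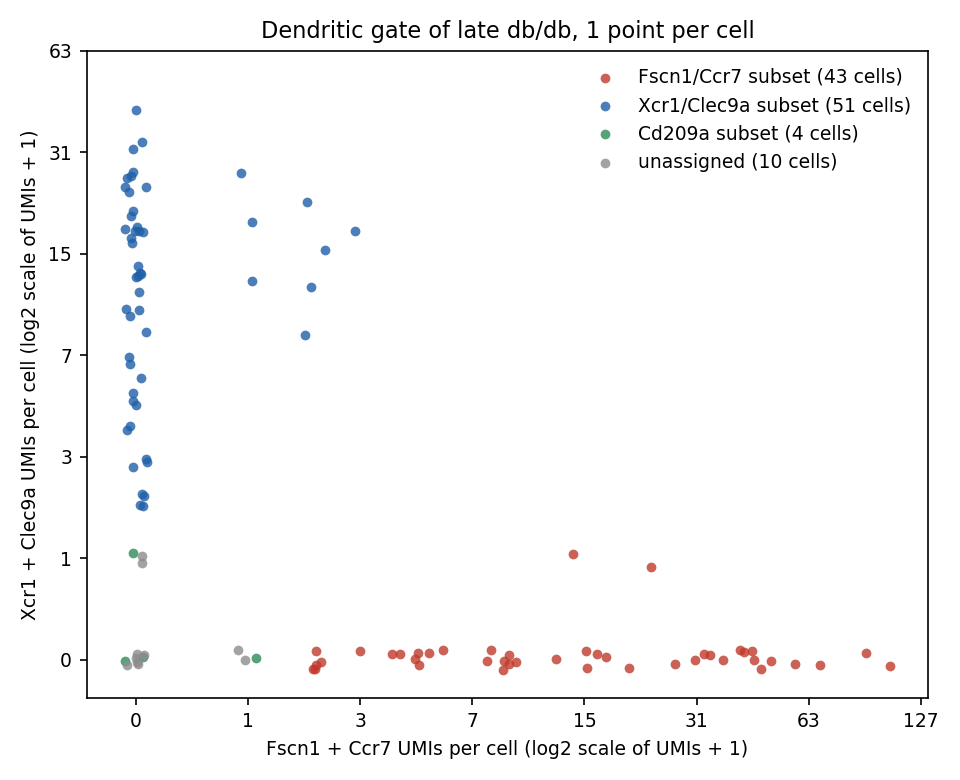
UMIs of Fscn1 plus Ccr7 (horizontal axis) and of Xcr1 plus Clec9a (vertical axis) in each of the 108 cells, on a log2 scale of UMIs + 1 with a small random shift to part overlapping points, colored by subset. The 51 and 43 cells of the larger subsets lie along separate axes, which follows from the rule that split them.

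Marks of other cells were present in a minority of members. At least 20 UMIs of the endothelial or the fibroblast and reticular list were found in 8 of 108 members (7.41%, 3.25 to 14.1%), of which 5 were in the Fscn1/Ccr7 subset, against 22 of 1944 (1.13%) in the B gate. In 4 of those 5 cells Ptprc had 0, 0, 1 and 1 UMIs, and 572 Ccl21a UMIs were found in 1 of them. Fscn1 is also made by endothelial and stromal cells, and the part of such cells in the subset's levels was not tested. Siglech, a plasmacytoid dendritic cell lectin, reached 10 UMIs in 6 members, 4 of them unassigned. Any UMI of 7 further lymphocyte genes was found in 48 of 108 members (44.4%) and in 28 of 60 C1q cells (46.7%). The immunoglobulin chain Igkc stood at 88.6 CPM in members and 92.3 CPM in the T gate, a pool of cells that do not make it. Scrublet, run at the usual doublet rate, marked 14 members, 8 of them in the Fscn1/Ccr7 subset. Of the 108 barcodes, 2 also occurred in another library.

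Set against the other libraries by the same rule, late db/db had 108 members, or 1.71% of its filtered barcodes (1.41 to 2.07%). The intervention library had 8 (0.156%, 0.0675 to 0.308%), early db/db 33 (0.688%, 0.474 to 0.964%) and the normal control 1 (0.0216%). Because lymphocytes fill the late library, the share was also taken outside the B and T gates, where it was 3.43% in late db/db, 0.157% in the intervention library, 0.735% in early db/db and 0.0217% in the control. Against C1q cells, members made up 108 of 168 in late db/db (64.3%, 56.5 to 71.5%), 8 of 74 in the intervention library (10.8%, 4.78 to 20.2%), 33 of 192 in early db/db (17.2%, 12.1 to 23.3%) and 1 of 82 in the control (1.22%, 0.0309 to 6.61%). C1q cells themselves were 0.952% of late db/db, 1.29% of the intervention library, 3.31% of early db/db and 1.75% of the control. Members thus outnumbered hormone-poor C1q cells in late db/db and in no other library, but this turns with the cut on hormones: with all barcodes of the C1q gate, members were 108 of 223 in late db/db (48.4%), 8 of 112 in the intervention library (7.14%), 33 of 227 in early db/db (14.5%) and 1 of 184 in the control (0.543%).

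The makeup by subset also differed between libraries. The Fscn1/Ccr7 subset was 43 of 108 in late db/db (39.8%, 30.5 to 49.7%) and 4 of 33 in early db/db (12.1%, 3.40 to 28.2%). Cd209a led in 4 of 108 in late db/db (3.70%, 1.02 to 9.21%) and in 10 of 33 in early db/db (30.3%, 15.6 to 48.7%). The share of the Xcr1/Clec9a subset was similar, at 47.2% in late db/db and 45.5% in early db/db (28.1 to 63.6%). The intervention library had 5 Xcr1/Clec9a cells, 1 Fscn1/Ccr7 cell and 2 unassigned, and the 1 cell of the control was led by Cd209a. Mgl2, a lectin of cDC2, had 0 UMIs in the 108 late members, 3 in the intervention library, 10 in early db/db and 6 in the 1 control cell.

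**Figure D2:**
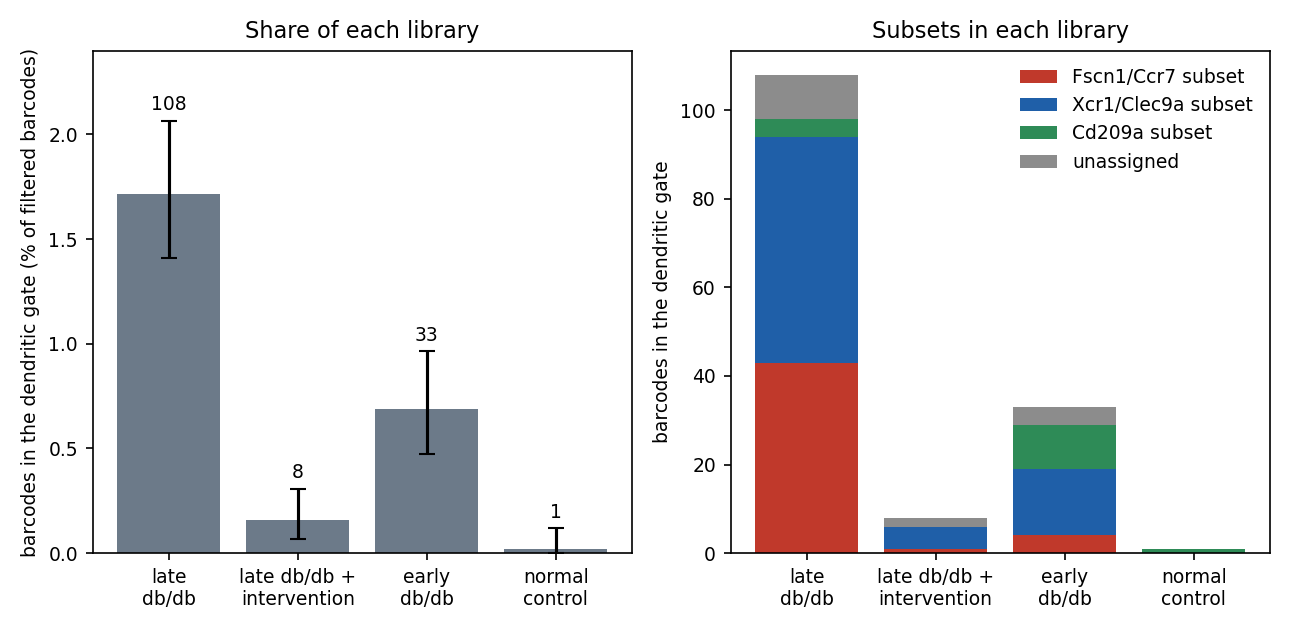
Left, barcodes in the dendritic gate as a percentage of filtered barcodes of each library, with exact 95% binomial intervals and the number of barcodes above each bar; right, the same barcodes by subset. Late db/db has 108 barcodes, 43 of them in the Fscn1/Ccr7 subset, against 8, 33 and 1 in the intervention, early and control libraries.

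The Xcr1/Clec9a subset carried the genes of cDC1. Irf8, on which cDC1 development depends, had 2089 UMIs in 51 of 51 cells, with a median of 40 and a highest of 112. It had 169 UMIs in 26 of 43 cells of the Fscn1/Ccr7 subset, with a median of 2. The ranges overlapped, with up to 28 UMIs in a Fscn1/Ccr7 cell. Naaa, a lysosomal amidase, had 845 UMIs in 50 of 51 cells of the Xcr1/Clec9a subset and 12 UMIs in 8 of 43 Fscn1/Ccr7 cells. Ppt1, a lysosomal thioesterase, had 1442 UMIs in 50 cells and 21 UMIs in 12 cells of the same subsets. Both lysosomal enzymes were thus sparse in the Fscn1/Ccr7 subset. Wdfy4, which cDC1 need for cross-presentation, had 707 UMIs in 50 cells and 53 in 20 cells. Tlr3, a sensor of double-stranded RNA, had 113 UMIs in 41 cells of the Xcr1/Clec9a subset and 2 UMIs in 2 Fscn1/Ccr7 cells. All 5 genes were thus in most Xcr1/Clec9a cells, and all but Irf8 in a minority of Fscn1/Ccr7 cells.

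Cd8a, the homodimeric form of which marks cDC1 of lymphoid organs, had 251 UMIs in 44 of 51 Xcr1/Clec9a cells and 10 UMIs in 4 of 43 Fscn1/Ccr7 cells. Itgae, which codes for CD103 and marks cDC1 of other tissues, had 67 UMIs in 25 Xcr1/Clec9a cells and 1 UMI in the Fscn1/Ccr7 subset. Cxcl9, a chemokine that draws T cells bearing Cxcr3, had 484 UMIs in 40 of 51 Xcr1/Clec9a cells, with a median of 3 and a highest of 219 in 1 cell. It had 0 UMIs in the 43 cells of the Fscn1/Ccr7 subset, 67 UMIs in 15 of 1944 B gate cells and 424 UMIs in 20 of 60 C1q cells. After each cell was thinned to 2000 UMIs, Cxcl9 was seen in 35.3% of Xcr1/Clec9a cells, against 78.4% before.

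Part of the Xcr1/Clec9a subset was in cycle. At least 10 UMIs in sum of Mki67, Top2a, Ube2c and Birc5, genes of dividing cells, were found in 8 of 51 cells (15.7%, 7.02 to 28.6%). The same held for 1 of 43 Fscn1/Ccr7 cells (2.33%, 0.0589 to 12.3%), 2 of 60 C1q cells (3.33%), 42 of 1944 B gate cells (2.16%) and 43 of 1207 T gate cells (3.56%). These pools differ in depth, and the limit of 10 UMIs was set after values were seen.

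The 4 cells led by Cd209a were too few to describe as a group. Sirpa had 26 UMIs in 4 of 4, and the calcium-binding protein S100a4 117 UMIs in 3. One of them held 29 Siglech UMIs together with 44 Lyve1 UMIs, Lyve1 being a receptor of lymphatic endothelium and some macrophages. Against this pool, 445 of 3245 genes (13.7%) were at least 2-fold higher in the Xcr1/Clec9a subset and 638 (19.7%) at least 2-fold lower. Of 17 cDC1 genes that entered, 11 were higher and 0 lower, with a median log2 ratio of 1.92, against -0.17 for all genes. Of 7 cDC2 genes, 1 was higher and 5 were lower. The steepest lower genes by the naming rule included Apold1, Marco, Lyve1 and Timp3, each carried by 1 cell. Sirpa (log2 ratio -5.30) and the cytochrome chain Cybb (-4.86) were lower as well. Cst3 (4.42), Aif1 (5.05, 2.57 to 10.4) and Id2 (3.64), the last needed for cDC1 development, were higher.

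**Figure D3:**
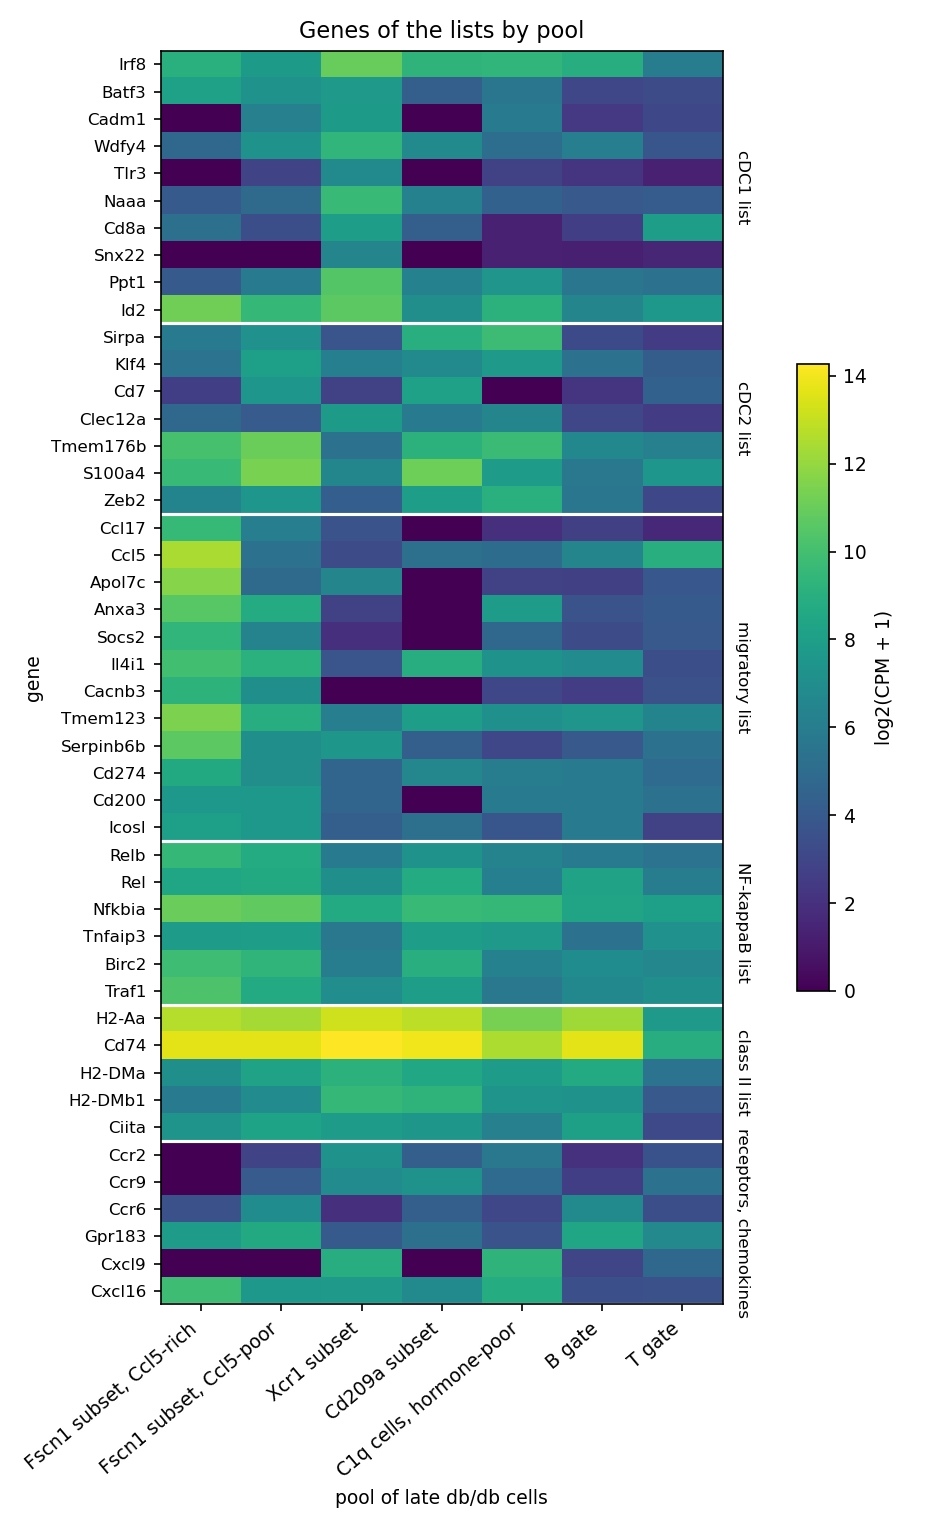
Level of 46 genes, as log2(CPM + 1), in 7 pools of late db/db cells, with genes down the page in blocks by list. Most genes of the cDC1 block are brightest in the Xcr1 subset (Irf8 2005 CPM), and most of the migratory block in the Ccl5-rich cells of the Fscn1 subset, which have at least 5 Ccl5 UMIs each.

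As a pool, the Fscn1/Ccr7 subset stood higher in genes of mature, migratory dendritic cells. Its 43 cells were set against the 55 conventional cells, which are the Xcr1/Clec9a and Cd209a subsets together. Among 3500 genes with at least 50 CPM in the higher pool and at least 30 UMIs over both pools together, 779 (22.3%) were at least 2-fold higher and 361 (10.3%) at least 2-fold lower in the Fscn1/Ccr7 subset, and the median log2 ratio was 0.17. The genes of the rule were left out of these counts. Of 32 genes of the migratory list that entered, 31 were higher and 0 lower, with a median log2 ratio of 3.97. The subset was uneven in them. Of 30 genes of the list compared within it, 18 were at least 2-fold higher and 0 lower in the 17 Ccl5-rich cells than in the other 26 (all genes: 9.47% higher). The list is a standing one for this state, chosen with earlier results of these data known, and it is no independent evidence.

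The chemokine Ccl5 led, with 1061 UMIs in 23 of 43 Fscn1/Ccr7 cells, a median of 1 and a highest of 269. The 55 conventional cells had 11 UMIs in 9 cells, a log2 ratio of 7.72 (95% counting interval 6.88 to 8.73). The level was thus very uneven within the subset. Anxa3, an annexin, had 428 UMIs in 33 Fscn1/Ccr7 cells and 6 UMIs in 4 conventional cells (log2 ratio 7.29, 6.15 to 8.74). Cacnb3, a calcium channel subunit, had 158 UMIs in 30 cells and 0 UMIs in the conventional cells, at least 115-fold higher when 3 UMIs are taken as the floor of that pool. Socs2, a suppressor of cytokine signaling, had 153 UMIs in 29 cells and 3 UMIs in 2 conventional cells (6.80, 5.23 to 9.10). Anxa3, Cacnb3 and Socs2 were each seen in more Fscn1/Ccr7 cells than Ccl5.

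Of the other genes that the naming rule picked, Zmynd15 (log2 ratio 7.42, 4.90 to 12.7), Nudt17 (7.38, 4.86 to 12.7), Flrt3 (7.18, 4.65 to 12.5) and Ryr3 (7.13, 4.60 to 12.5) each rested on 1 UMI in the conventional cells. The same was true of Cdh2 (7.04, 4.50 to 12.4), Insm1 (6.96, 4.43 to 12.3) and the adenosine receptor Adora2a (6.62, 4.07 to 12.0). Slco5a1, a transporter, had 93 UMIs in 30 Fscn1/Ccr7 cells and likewise 1 UMI in the conventional cells. The intervals of these genes are wide for that reason.

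Genes of costimulation and of inhibition and tolerance were mostly higher; values in parentheses are log2 ratios with their counting intervals, here and in the paragraphs that follow. Of 9 costimulation genes, 5 were higher and 1 lower, and of 13 inhibitory and tolerance genes, 10 were higher and 2 lower, the inhibitory genes with a median of 3.07. The 10 include ligands (Cd274, Cd200, Pvr, Nectin2), enzymes (Aldh1a2, Il4i1), intracellular suppressors of cytokine signaling (Socs1, Socs2, Socs3) and the death receptor Fas, and several are also on the migratory list. Cd274, which codes for PD-L1, had 119 UMIs in 31 of 43 Fscn1/Ccr7 cells and 30 UMIs in 15 of 55 conventional cells (log2 ratio 3.12, 2.53 to 3.75). Cd200, a ligand that restrains myeloid cells, had 96 UMIs in 20 cells and 25 UMIs in 11 conventional cells (3.07, 2.42 to 3.77). Il4i1, an amino acid oxidase, had 362 UMIs in 38 cells and 38 UMIs in 8 conventional cells (4.38, 3.90 to 4.91). Costimulatory genes differed as well. Icosl, the ligand of Icos, had 109 UMIs in 30 cells and 22 UMIs in 18 conventional cells (3.44, 2.77 to 4.17). Cd40 had 84 UMIs in 25 cells and 37 UMIs in 19 conventional cells (2.31, 1.74 to 2.91). Cd86 did not pass 2-fold, with 76 UMIs in 30 cells and 214 UMIs in 50 conventional cells (-0.36, -0.76 to 0.02). The 2 inhibitory genes that were lower were Havcr2 (-3.18), which codes for TIM-3, and Btla (-2.83).

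Of 9 chemokine genes, 5 were higher (Ccl5, Ccl17, Ccl19, Ccl2 and Cxcl16) and 3 lower (Cxcl9, Cxcl10 and Cxcl13). Within the subset, Ccl19 was at least 2-fold lower in the Ccl5-rich than in the other cells, as were Ccl21a, Cxcl12 and Madcam1. The part of stroma-marked cells in its level was not tested. Ccl17, which draws cells bearing Ccr4, had 165 UMIs in 13 of 43 Fscn1/Ccr7 cells and 12 UMIs in 2 conventional cells (4.91, 4.07 to 5.89). Cxcl16 was higher by a log2 ratio of 1.21. Cxcl9, at 0 UMIs in the Fscn1/Ccr7 subset and 484 UMIs in 40 conventional cells, was at least 73.7-fold lower. Among receptors, Ccr6 (4.45), the oxysterol receptor Gpr183 (4.35) and the prostaglandin receptor Ptger4 (1.89) were higher, and Ccr2 (-5.23, -8.28 to -3.35) and Ccr9 (-3.57) lower. Ccr2 had 2 UMIs in the Fscn1/Ccr7 subset and 164 UMIs in 39 conventional cells. Il12b, a chain of the cytokines IL-12 and IL-23, had 21 UMIs in 3 Fscn1/Ccr7 cells and 0 in the conventional subsets.

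The NF-kappaB list had 20 genes that entered, of which 17 were higher and 0 lower, with a median of 1.43. NF-kappaB is the family of transcription factors that dendritic cells activate on maturation. Relb, a subunit of the alternative pathway, had 276 UMIs in 41 of 43 Fscn1/Ccr7 cells and 67 UMIs in 34 of 55 conventional cells (3.17, 2.78 to 3.58). Nfkbia, the inhibitor and target of the pathway, had 945 UMIs in 43 cells and 482 UMIs in 52 conventional cells (2.10, 1.94 to 2.26). Birc2 (3.12), Traf1 (2.43), Tnfaip3 (1.98), Rel (1.37), Nfkb2 (1.17), Nfkb1 (1.15) and Birc3 (1.09) were higher too. After ratios were centred on the median of all genes, 11 of the 20 remained past 2-fold and 30 of 32 of the migratory list.

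The start regions of 4 genes of this list are shown because they hold the letters of a kappaB motif, and those of 2 genes of the migratory list, Apol7c and Socs1, because they hold an interferon-response core. They are RefSeq promoters on GRCm38.p6, from 250 bases before to 50 bases after the gene's start, written 5′ to 3′ on the gene's strand. Capitals mark matches, on either strand, to the kappaB motif (GGG, any 2 bases, TTTCC) in the first 4. In the last 2 they mark matches to a core of interferon-response elements (GAAA, any 2 bases, GAAA), where overlapping matches run together. Nfkb2 is shown at the first of its 3 starts. Tnfaip3 has another start, not shown, without a kappaB match.
Nfkbia (chr12:55492598-55492897, minus strand): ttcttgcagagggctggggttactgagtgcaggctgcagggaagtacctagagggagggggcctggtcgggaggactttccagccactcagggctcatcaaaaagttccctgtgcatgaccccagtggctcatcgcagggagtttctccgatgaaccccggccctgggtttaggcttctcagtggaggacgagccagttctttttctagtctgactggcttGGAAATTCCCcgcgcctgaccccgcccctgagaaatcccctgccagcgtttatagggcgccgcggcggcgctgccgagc
Tnfaip3 (chr10:19015361-19015660, minus strand): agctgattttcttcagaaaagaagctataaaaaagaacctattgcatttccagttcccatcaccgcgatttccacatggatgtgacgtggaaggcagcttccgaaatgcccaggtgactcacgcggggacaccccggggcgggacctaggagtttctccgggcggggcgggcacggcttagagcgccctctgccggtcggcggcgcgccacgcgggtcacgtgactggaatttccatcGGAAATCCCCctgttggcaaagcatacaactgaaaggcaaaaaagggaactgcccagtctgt
Nfkb2 (chr19:46304487-46304786, plus strand): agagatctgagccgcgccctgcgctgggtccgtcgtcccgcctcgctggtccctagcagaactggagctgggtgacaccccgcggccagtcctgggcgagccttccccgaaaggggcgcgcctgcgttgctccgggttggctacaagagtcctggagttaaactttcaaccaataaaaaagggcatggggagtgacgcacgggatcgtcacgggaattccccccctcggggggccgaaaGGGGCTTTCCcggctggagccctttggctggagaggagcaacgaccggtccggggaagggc
Rel (chr11:23770920-23771219, minus strand): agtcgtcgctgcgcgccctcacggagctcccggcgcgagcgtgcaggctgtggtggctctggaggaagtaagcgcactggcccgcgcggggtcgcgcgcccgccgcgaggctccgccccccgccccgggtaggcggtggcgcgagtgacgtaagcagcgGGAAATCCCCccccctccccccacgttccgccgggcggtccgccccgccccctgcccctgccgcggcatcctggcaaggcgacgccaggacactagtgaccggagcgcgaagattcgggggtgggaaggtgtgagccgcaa
Apol7c (chr15:77533266-77533565, minus strand): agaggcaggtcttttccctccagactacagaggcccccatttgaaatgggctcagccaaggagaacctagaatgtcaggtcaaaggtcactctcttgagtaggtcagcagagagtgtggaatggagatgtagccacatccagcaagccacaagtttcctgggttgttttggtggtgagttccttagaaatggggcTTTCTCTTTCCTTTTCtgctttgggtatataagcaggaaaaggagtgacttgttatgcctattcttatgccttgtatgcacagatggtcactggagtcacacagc
Socs1 (chr16:10785487-10785786, minus strand): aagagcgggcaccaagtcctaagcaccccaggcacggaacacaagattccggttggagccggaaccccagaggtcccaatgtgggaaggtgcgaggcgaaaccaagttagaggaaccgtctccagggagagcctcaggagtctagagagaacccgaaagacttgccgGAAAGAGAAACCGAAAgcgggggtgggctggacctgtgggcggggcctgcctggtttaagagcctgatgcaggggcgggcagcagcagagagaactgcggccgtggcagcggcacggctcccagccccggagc

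The kappaB motif was found in 7 of 19 genes of the NF-kappaB list that had a promoter in the table (36.8%), against 512 of all 27025 genes (1.89%). It was found in 1 of 29 genes of the migratory list (3.45%, Tnfrsf9) and 1 of 14 of the cDC1 list (7.14%, Tlr3). The interferon-response core was found in 4 of 29 genes of the migratory list (13.8%), which were Socs1, Serpinb9, Apol7c and Stat4. It was found in 2 of 14 genes of the cDC1 list (14.3%), which were Ifi205 and Tlr11, in 1 of 19 genes of the NF-kappaB list and in 1079 of all genes (3.99%). Most genes of the migratory list were without the kappaB letters in this window, as were most of all genes. A match is a run of letters, not a binding site.

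MHC genes were not uniformly higher. Of 15 class II presentation genes, 4 were higher and 3 lower, with a median of 0.06. Cd74, the invariant chain, had 6570 UMIs in the Fscn1/Ccr7 subset, with a median of 134 per cell, and 21326 UMIs in the conventional cells (-0.57, -0.61 to -0.53), short of 2-fold. H2-DMb1, a chain of the peptide exchange factor, had 47 UMIs in 23 cells and 777 UMIs in 53 conventional cells (-2.92, -3.37 to -2.49), and March1 (-2.23), the ligase that removes class II from the surface, was lower. Of 22 class I and cross-presentation genes, 6 were higher and 2 lower, among them B2m (1.42) and H2-M2 (5.46) as higher. H2-M2 had 262 UMIs in 15 of 43 Fscn1/Ccr7 cells and 13 UMIs in 2 conventional cells. So few cells carried H2-M2 that its level says little of the subset as a whole.

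Of 17 cDC1 genes, 15 were lower in the Fscn1/Ccr7 subset and 0 higher (median -3.78). This follows in part from the split, since 51 of the 55 conventional cells were chosen by Xcr1 and Clec9a. Irf8 was lower by a log2 ratio of -2.52 (-2.75 to -2.29). Batf3 was not, with 102 UMIs in 31 of 43 Fscn1/Ccr7 cells and 219 UMIs in 45 of 55 conventional cells (0.03, -0.32 to 0.37), nor was Id2 (-0.23). In contrast to other genes of the list, Batf3 and Id2 thus stood at similar CPM in both pools. Of 9 cDC2 genes, 8 were higher and 1 lower (all genes: 22.3% higher). This too follows in part from the split, since 51 of the 55 conventional cells were Xcr1/Clec9a cells. The 8 include Tmem176b (4.72), S100a4 (3.31) and Sirpa (1.68). Sirpa had 57 UMIs in 21 Fscn1/Ccr7 cells and 39 UMIs in 5 conventional cells. Irf4 had 21 UMIs in 13 Fscn1/Ccr7 cells and 2 UMIs in 2 Xcr1/Clec9a cells.

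Of the genes picked by the naming rule as lower, the purine receptor P2ry14 (-7.08, -12.4 to -4.59) and Galc (-5.19, -10.5 to -2.67) had 1 UMI each in the Fscn1/Ccr7 subset. Ifi205 (-6.62), Rab7b (-6.24), Gatm (-5.19) and Tlr3 (-4.69) had 2 UMIs each, with intervals of -9.67 to -4.76, -9.30 to -4.38, -8.25 to -3.31 and -7.75 to -2.80. Cd36, a scavenger receptor, had 0 UMIs in the Fscn1/Ccr7 subset and 134 UMIs in 45 conventional cells. Naaa (-5.01) and Ppt1 (-4.97) rested on 12 and 21 UMIs in the Fscn1/Ccr7 subset. Of 17 cell cycle genes, 8 were lower and 0 higher (median -0.98), among them Mki67 (-1.55), with 20 UMIs in 3 Fscn1/Ccr7 cells and 128 UMIs in 19 conventional cells.

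Other cells' genes moved with this comparison. Of 7 fibroblast and reticular markers, 6 were higher, and of 4 endothelial markers, 4 were higher in the Fscn1/Ccr7 subset. With cells marked for stroma or Siglech left out, neither list had a gene that entered. This follows in part from the marking, since the same lists chose the stromal cells to leave out. In that setting 29 of 31 migratory genes, 16 of 20 NF-kappaB genes and 9 of 12 inhibitory genes were higher and 15 of 17 cDC1 genes lower. Both T and NK cell markers that entered were higher, namely Il7r and the transcription factor Tcf7, which had 82 UMIs in 30 of 43 Fscn1/Ccr7 cells and 4 UMIs in 1 conventional cell. Of the 16 markers on this list, 13 had UMIs in the Fscn1/Ccr7 subset, 245 in sum (490.0 CPM, against 96.9 CPM in the Xcr1/Clec9a subset), and Nkg7, Ncr1 and Gzma were at 0. Their part in the other differences was not tested. With the members limited to cells without a UMI of 7 lymphocyte genes, the split of called genes was 551 higher to 495 lower (52.7% higher, against 68.3%).

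**Figure D4:**
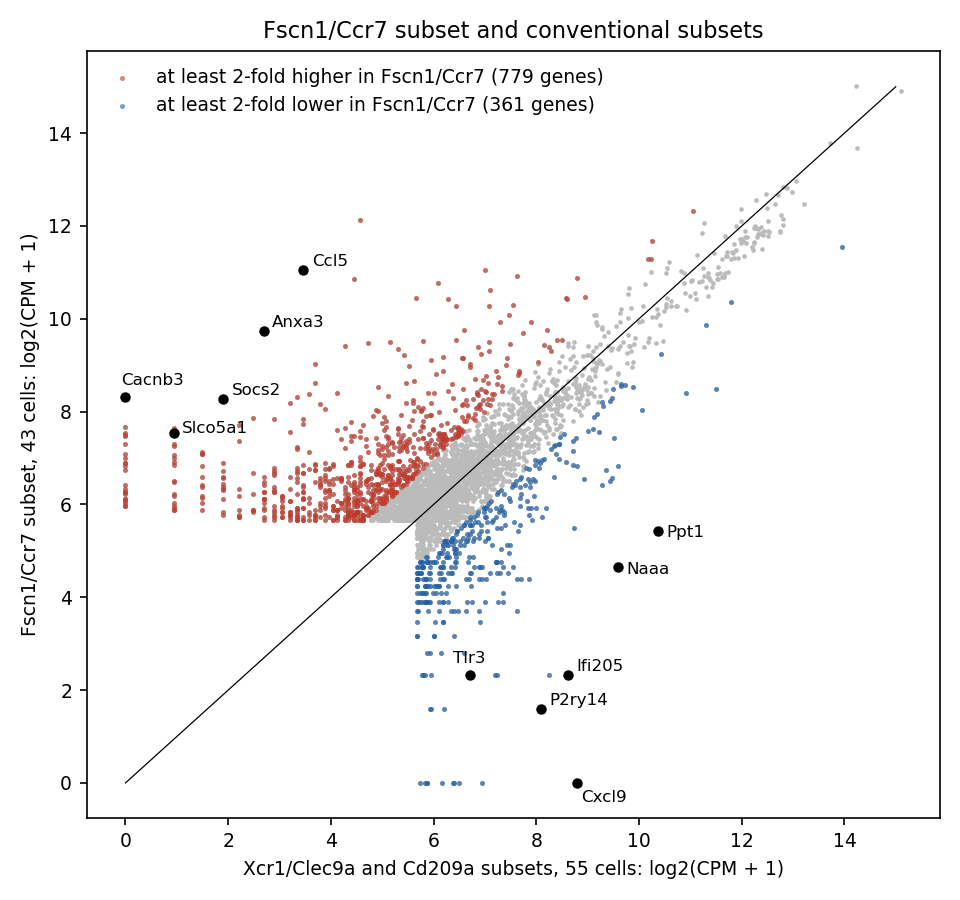
Each point is 1 of 3500 genes, with log2(CPM + 1) in the 55 conventional cells on the horizontal axis and in the 43 Fscn1/Ccr7 cells on the vertical axis; the line marks equal levels and colors mark genes past 2-fold. Ccl5, Anxa3, Cacnb3 and Socs2 lie far above the line, and Cxcl9, P2ry14 and Ifi205 far below it.

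Within the Fscn1/Ccr7 subset, cells differed in Ccl5. This split was made after its values were seen and gets no test. The 17 cells with at least 5 Ccl5 UMIs held 1049 of them, with a median of 43 and a highest of 269, and the other 26 cells held 12 UMIs in 6 cells. Median depth was 11126 UMIs in the Ccl5-rich and 10923 in the Ccl5-poor cells, with highest values of 17327 and 24170 in the same pools. The Ccl5-rich cells had fewer genes, with a median of 2695 against 3375.5 in the Ccl5-poor cells, and a lower median share of mitochondrial UMIs, 2.73% against 4.05%. Ccr7 was present in 17 of 17 Ccl5-rich cells, with 3, 19 and 61 UMIs as lowest, median and highest and 375 of the subset's 446 UMIs. Ccl22, a partner of Ccl17 in drawing Ccr4-bearing cells, had 220 of its 230 UMIs in 11 of the 17. Ccl5 is also a gene of T and NK cells, with 4803 UMIs in 260 of 1207 T gate cells. Of 16 T and NK cell markers, 7 had UMIs in the Ccl5-rich cells, 62 in sum (325.6 CPM, against 591.2 CPM in the Ccl5-poor cells). The 7 were Tcf7, with 26 of these UMIs, Il7r, Klrd1, Cd8b1 and the T cell receptor chains Trac, Trbc1 and Trbc2. The 9 at 0 were Cd3d, Cd3g, Cd4, Lck, Nkg7, Ncr1, Gzma, Cd247 and Thy1.

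Of 2576 genes, 244 (9.47%) were at least 2-fold higher and 640 (24.8%) at least 2-fold lower in the Ccl5-rich cells, with a median of -0.30. Of 30 migratory genes, 18 were higher and 0 lower (median 1.43). Apol7c, a gene of the apolipoprotein L family, had 611 UMIs in 16 of 17 Ccl5-rich cells and 9 UMIs in 2 of 26 Ccl5-poor cells (6.79, 5.85 to 7.92). Crip1, a LIM protein, had 1128 UMIs in 17 of 17 and 128 UMIs in 15 of 26 (3.84, 3.58 to 4.12). Epsti1 had 540 UMIs in 17 of 17 and 78 UMIs in 9 of 26 (3.49, 3.15 to 3.85). Each of these 3 genes was thus seen in at least 16 of the 17 Ccl5-rich cells. Serpinb6b, a protease inhibitor (3.57, 3.10 to 4.07), AW112010 (3.65, 3.06 to 4.28) and Ccl17 (3.48, 2.81 to 4.21) were higher too. Slc7a11, a cystine transporter, had 58 UMIs in 13 cells and 1 UMI in the Ccl5-poor cells (6.56, 4.02 to 11.9). Aldh1a2, which makes retinoic acid, had 28 UMIs in 8 cells and 2 UMIs in 2 cells (4.51, 2.52 to 7.62). Asprv1 (4.56), Net1 (3.95) and Synpo2 (3.79) were named as well. Bcl2l14 (5.40, 3.48 to 8.48) rested on 4 Ccl5-rich cells, and its log2 ratio was -1.44 with the split at 10 Ccl5 UMIs.

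Part of the class II list ran the other way. Of 14 class II genes, 6 were lower in the Ccl5-rich cells and 0 higher (all genes: 24.8% lower). The 6 were H2-DMa, H2-DMb1, H2-DMb2, H2-Oa, H2-Ob and the protease gene Ctsd, and Cd74, H2-Aa and H2-Eb1 were not among them. Of 8 cDC2 genes 5 were lower and 0 higher, and of 22 class I genes 9 were higher and 1 lower in the Ccl5-rich cells. H2-Ab1, a gene of the rule, had a median of 14 UMIs in the Ccl5-rich and 47.5 in the Ccl5-poor cells. Ly6e had 1 UMI in the Ccl5-rich cells and 129 UMIs in 16 Ccl5-poor cells (-6.31, -11.6 to -3.81). Cd7 had 1 UMI and 56 UMIs in 14 cells (-5.11, -10.4 to -2.57). The protease Ctsl had 4 UMIs and 198 UMIs in 15 cells (-4.93, -6.82 to -3.55), and the actin-capping protein Capg 2 UMIs and 104 UMIs in 15 cells (-5.00, -8.06 to -3.11). Apoe (-5.21, -6.43 to -4.22) was carried by 9 Ccl5-poor cells. Nrgn (-6.00, -11.3 to -3.49), Selenop (-5.32, -10.6 to -2.79), Kif21a (-5.16, -10.5 to -2.62) and Ifi203 (-4.69, -10.0 to -2.13) had 1 UMI each in the Ccl5-rich cells. Cebpb (-4.77, -7.84 to -2.88) and Atp1b1 (-4.67, -7.74 to -2.78) had 2 UMIs each. Nfib (-5.00, -10.3 to -2.46) had 52 UMIs in 6 Ccl5-poor cells, and its log2 ratio was 1.03 without the stroma-marked cells. Of the 5 stroma-marked cells of the subset, 1 was Ccl5-rich and 4 were Ccl5-poor, and 6 of 6 fibroblast and reticular and 4 of 4 endothelial markers were lower in the Ccl5-rich cells.

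Ryr3, a ryanodine receptor of intracellular calcium stores best known from muscle and brain, marked part of the Ccl5-poor cells. It was found in 14 of 26 Ccl5-poor cells, with 64 UMIs and 11 at most, and in 0 of 17 Ccl5-rich cells. It was also found in 4 of 10 unassigned members, with 25 UMIs, but in only 1 of 1944 B gate cells and 2 of 1207 T gate cells. Some of the 14 cells carried genes from outside the dendritic lists. The adhesion molecule Cadm3 was seen in 11 of them, and the neuropeptide Gal, the neurogranin gene Nrgn, the kinesin Kif21a and the granule proteins Prg2 and Prg3 in 6 each. Of the 12 Ccl5-poor cells without Ryr3, Nrgn was seen in 4, Cadm3 in 3, Gal, Kif21a and Prg3 in 2 each and Prg2 in 1. Aire, the regulator that lets thymic epithelium show tissue antigens, had 15 UMIs in 6 of the 14, and 5 at most.

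Tcf7 was seen in 13 of 14 Ryr3 cells, with 45 UMIs, against 12 of 17 Ccl5-rich cells, with 26 UMIs. Relb was found in 14 of 14, Anxa3 in 13, Cd274 in 12 and Ccr7 in 7, with 29 Ccr7 UMIs. Ccl22 was found in 0. The class II invariant chain Cd74 had a median of 176.5 UMIs in these cells, against 115.5 in the Ccl5-poor cells without Ryr3, 131 in the Ccl5-rich cells and 357 in the 4 unassigned cells with Ryr3. They are called here by their leading gene only. The genes beside Ryr3 were chosen after their values were seen.

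**Figure D5:**
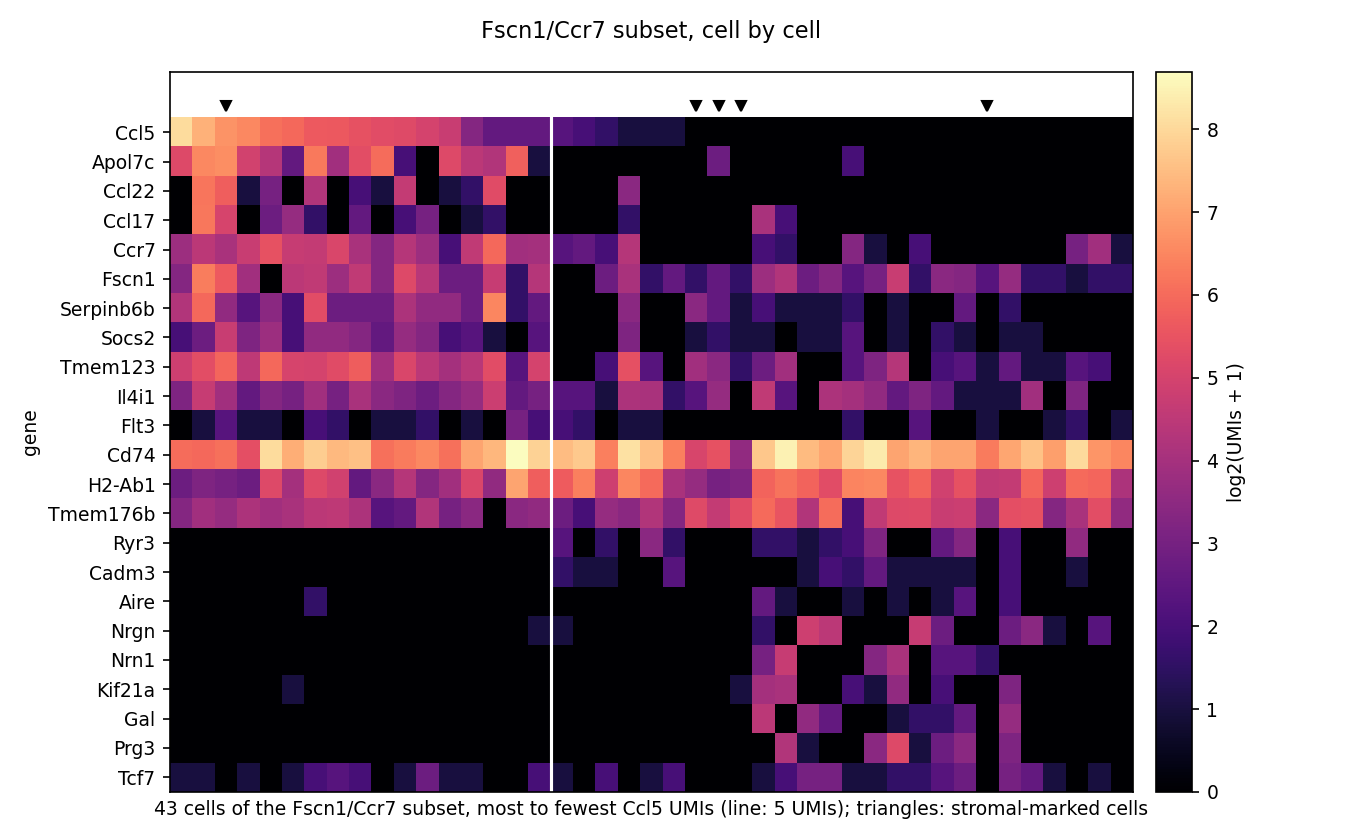
UMIs, as log2(UMIs + 1), of 23 genes in each of the 43 Fscn1/Ccr7 cells, one column per cell from most to fewest Ccl5 UMIs; the white line parts the 17 cells with at least 5 Ccl5 UMIs from the other 26, and triangles mark 5 cells with stromal genes. Apol7c and Ccr7 fill the left side, and Ryr3, Cadm3 and Aire lie to the right of the line but for 1 Aire-bearing cell.

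The Xcr1/Clec9a subset was the 1 subset with enough cells in another library for a comparison, which was added after values were seen. Its 51 cells in late db/db, at 98 days, were set against its 15 cells in early db/db, at 70 days, with median depths of 22592 and 9909 UMIs. Of 2974 genes, 313 (10.5%) were at least 2-fold higher and 210 (7.06%) at least 2-fold lower in late db/db, with a median of 0.01. Irf8 was at 2005 CPM in late db/db and 1792 CPM in early db/db, Batf3 at 209 and 186 CPM, and Cd74 at 19656 and 20935 CPM in the same libraries. Of 17 cDC1 genes, 4 were higher (Cd8a, Snx22, Ppt1 and Tlr11) and 2 lower (Itgae and Cd24a).

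Cxcl9 was at 484 UMIs in 40 of 51 late cells and 0 UMIs in 15 early cells, at least 21.6-fold higher with 3 UMIs as the floor of the early pool. Cxcl9 was not absent from the early library, with 123 UMIs in 20 of 4800 barcodes. Cd8a had 251 UMIs in 44 late cells, with a median of 4, and 0 UMIs in the early cells, at least 11.2-fold higher. Between these 2 pools, Cxcl9 and Cd8a were thus seen in late cells alone. Dnase1l3, a nuclease of chromatin in microparticles, had 530 UMIs in 39 late cells and 0 UMIs in early cells, at least 23.6-fold higher. Nedd4, a ubiquitin ligase, had 203 UMIs in 42 late cells and 1 UMI in the early cells (4.76, 2.27 to 10.1). Klrk1, which codes for the receptor NKG2D, had 102 UMIs in 35 late cells and 1 UMI in the early cells (3.77, 1.26 to 9.09). Each of these 5 genes was in most late cells and in at most 1 early cell.

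Further genes named as higher were Zfp366 (3.87, 1.36 to 9.18), a zinc finger factor of dendritic cells, and Serpina3g (3.58, 1.71 to 6.64), the histone genes Hist1h2ap (4.43, 1.93 to 9.74) and Hist1h1e (4.12, 1.62 to 9.44), Gdap10 (3.57, 1.06 to 8.89) and Otulin (3.44, 0.92 to 8.76). Apoe (4.31, 1.81 to 9.62) was carried by 12 late cells, with 116 of its 148 UMIs in 1 of them. Of 17 cell cycle genes, 9 were higher and 0 lower (median 1.03). Ccl17 ran the other way, with 12 UMIs in 2 late cells and 121 UMIs in 4 early cells (-6.24, -7.23 to -5.38). So did Ccl4, with 27 UMIs in 11 late cells and 61 UMIs in 5 early cells (-4.08, -4.79 to -3.40), Ccr2 (-1.80) and Itgae (-1.79). Of 16 immediate early and stress genes, 1 was higher and 7 lower (median -0.90), among them Fos (-1.11) and Hspa1a (-1.47).

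Genes of other cells moved with this comparison. Of 8 exocrine genes, 8 were lower in late db/db (median -4.07), among them Clps (-4.87) and Try5 (-4.67). Cela3b (-4.45), an exocrine gene outside the list, was lower too. The summed list was at 355 CPM in late and 5255 CPM in early Xcr1/Clec9a cells. It was also lower in the late B gate, at 2864 CPM in late db/db and 10699 CPM in early db/db, and in the T gate, at 4311 and 6155 CPM in the same libraries. Of 8 endocrine markers, 4 were higher in late db/db (Iapp, Sst, Chga and Scg2) and 0 lower. Both fibroblast and reticular markers that entered (Ccl21a and Cxcl13) were higher, as were 3 of 3 plasmacytoid markers (Bst2, Ccr9 and Tcf4) and Igkc. The part of these cells in the other differences was not tested.

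Against the 60 C1q cells of the same library, of 3689 genes, 406 (11.0%) were at least 2-fold higher and 822 (22.3%) at least 2-fold lower in the 108 members, with a median of -0.16. The first gate for C1q cells had 115 barcodes, but 55 of them held 10% or more hormone UMIs, a median of 0 H2-Ab1 UMIs and 0 Csf1r UMIs, so they were set aside. Against all 115, 595 of 4037 genes (14.7%) were higher and 1208 (29.9%) lower, and the steepest lower genes were hormones such as Gcg, Sst and Ppy. Of 15 class II genes, 9 were higher in members, Cd74 (1.59), H2-Aa (1.68) and H2-Eb1 (1.69) included, and 5 lower, all of them lysosomal proteases such as Ctsb, Ctsd and Ctss. The higher values follow in part from the rule. It asked for at least 5 H2-Ab1 UMIs in members and set no such limit for C1q cells. Median H2-Ab1 was 68.5 UMIs in members and 4.5 in C1q cells. H2-Aa stood at 8316 CPM in members and 2602 CPM in C1q cells. Phagocytosis and endolysosome genes were lower in 20 of 24 and higher in 0 (median -2.45).

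All 15 cDC1 genes that entered were higher in the members, with Cd8a at a log2 ratio of 6.74 (4.25 to 12.0) and Irf8 at 1.10, and so were 12 of 17 cell cycle genes (median 1.70). Of 16 macrophage markers, 15 were lower and 1 higher (median -5.90). The cDC1 and macrophage counts follow in part from the gates, since Xcr1 and Clec9a were among the genes that chose the members. C1q genes chose the other pool and were limited in the members. Trem2 (-9.08, -14.4 to -6.59), a lipid receptor, and Ms4a7 (-8.92, -12.0 to -7.06) were among the lowest, and Gpnmb was at 0 UMIs in members and 738 UMIs in C1q cells. Chemokine and cytokine genes that entered were mostly lower in the members (all genes: 22.3% lower). Of 14 chemokine genes, 2 were higher in members (Ccl5 and Ccl17) and 11 lower, among them Ccl4 (-3.28) and Cxcl9 (-1.12). Of 8 cytokine genes, 1 was higher (Ltb) and 5 were lower, among them Tnf (-3.04) and Il1a (-6.08, -9.16 to -4.16). Lsp1, an actin-binding protein of leukocytes, was found in 106 of 108 members and 14 of 60 C1q cells, with 1046 CPM in members and 32.1 CPM in C1q cells. Btla (6.21, 3.71 to 11.5), Apol7c (6.16) and Serpinb6b (5.45) were among the highest. Of 9 exocrine markers, 8 were lower in the members, and of 9 endocrine markers, 5 were lower and 1 higher; their part in the other differences was not tested.

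Against the B gate, of 3220 genes, 538 (16.7%) were at least 2-fold higher and 372 (11.6%) at least 2-fold lower in the members, with a median of 0.11. Class II genes stood close in CPM, with a floor of 5 H2-Ab1 UMIs set for members alone. Of 15, 2 were higher and 2 lower, with Cd74 at 17486 CPM in members and 13059 CPM in the B gate (0.42) and H2-Aa at 0.81. Class I genes were higher in 10 of 22 and lower in 0 (median 0.83), among them the peptide transporter genes Tap1 (1.78) and Tap2 (1.25) and the immunoproteasome gene Psmb8 (1.15). Of 15 cDC1 genes, 14 were higher and 0 lower, Irf8 by 1.58. This follows in part from the rule, since Xcr1 and Clec9a were among the genes that chose the members. Itgax (6.41), Havcr2 (6.31), Klrk1 (6.26) and the transcription factor Mycl (6.10) were named as higher. Of 16 B cell markers, 16 were lower (median -6.91), and Cxcr5 (-5.26, -7.54 to -3.71), which guides B cells to follicles, Irf4 (-2.54) and Gpr183 (-1.48) were lower as well. The count of B cell markers follows in part from the gates, since Cd79a chose the B gate and was barred from the members. Markers of other cells moved with this comparison: of 8 exocrine markers, 8 were lower in the members (median -2.72), and of 10 endocrine markers, 9 were lower. Their part in the other differences was not tested.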

How the data were processed

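The deposited files hold 1 matrix of UMI counts per library (10x Genomics 3′ v3 chemistry, per the labels), written by Cell Ranger 3.0.0, per the file headers. The submitters' processing notes name CASAVA 1.8, Cell Ranger, Seurat and mm10; the counts were not normalized by the authors. Kept barcodes had at least 1000 UMIs and 500 genes and at most 20% mitochondrial UMIs, leaving 6301, 5115, 4800 and 4629 in the late db/db, intervention, early and control libraries, with median depths of 6428, 26842, 14993 and 26469 UMIs. Levels are UMI sums of a gate's cells as CPM, without mitochondrial genes and 7 hormone genes. The 95% intervals are exact, conditional binomial for ratios and Clopper-Pearson for shares; both cover counting error only, and cells of 1 library are not replicates, so no p-value is given. Only genes reaching 50 CPM in one pool and 30 UMIs over both were compared, and 2-fold was the limit for a call. Named genes are the 12 with the largest and the 12 with the smallest ratio among called genes whose interval excludes a ratio of 1 and that have a UMI in at least 20% of the cells of the higher pool, beside genes of the 34 lists, of which 569 of 576 genes are in the matrix. A pool at 0 was taken at 3 UMIs. Members and lists were chosen with earlier results of these data known. Scrublet (scanpy 1.11.5) was run with 0.8% doublets per 1000 cells. Its automatic calls marked 69 barcodes (1.10%) in late db/db. The summing and the intervals were tested on simulated data. Python 3.11.15, numpy 2.4.6, scipy 1.17.1 and pandas 2.3.3 were used.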

Additional observations from a re-analysis of the deposited data

How the results depend on the processing

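No paired analysis was possible because each group is 1 library and its label carries no replicate number. Over all alternatives, 1155 values stayed close to the reported one, 106 moved and 2 changed sign, both in the split by Ccl5 (Bcl2l14 at -1.44 with a split at 10 UMIs, Nfib at 1.03 without stroma-marked cells). The 108 members became 60 when 7 more lymphocyte genes had to be at 0 and 94 after Scrublet removal. The 10 unassigned cells became 5 with a limit of 1 UMI, 19 with 3 UMIs and 6 after Scrublet removal. Genes lower in the Fscn1/Ccr7 subset numbered 605 with a minimum of 20 CPM, 605 with none and 787 with Ccl5-rich cells only (606 higher), against 361. Without lymphocyte UMIs, 276 genes were higher in the Xcr1/Clec9a than in the Cd209a subset, against 445. Centring on the median gave 669 higher and 457 lower genes for the Fscn1/Ccr7 subset, and 527 higher and 470 lower for Xcr1/Clec9a against Cd209a. Against the first C1q gate of 115 barcodes, higher genes numbered 935 with all UMIs as denominator, 992 with 20 CPM and 1159 with no minimum, and lower genes 599, 2486 and 3117 in the same order; centring gave 839 and 945. Against the B gate, 1053 and 1708 genes were higher and 606 and 1360 lower with 20 CPM and no minimum. Thinned to 2000 and 1000 UMIs per cell, the share of cells with a UMI was 7.41% and 3.70% for Zbtb46 in members (38.9% unthinned), 25.6% and 18.6% for Cd274 in the Fscn1/Ccr7 subset (72.1%), and 35.3% and 25.5% for Cxcl9 in the Xcr1/Clec9a subset (78.4%). The causes were not tested. The 4 Cd209a cells and the 15 early Xcr1/Clec9a cells are few, and small sums of UMIs leave wide intervals there.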

Other observations

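Aire was not confined to the members. In late db/db, 57 Aire UMIs were found in 37 filtered barcodes, of which 8 were members, against 1 UMI in the intervention library and 0 in early db/db and in the control. Of the 29 barcodes outside the gate, 16 had too little H2-Ab1, 11 too few UMIs of the 6 dendritic genes, 11 a Cd79a UMI and 8 a Cd3e UMI, with some barcodes in more than 1 of these counts. A Fscn1 UMI was found in 18 of the 29 and a Ryr3 UMI in 2.

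Partners of the members' receptors and ligands were seen in the same library. The ligands Ccl22 and Ccl17 were not confined to members. In late db/db, Ccl22 had 1516 UMIs in 146 barcodes, 13 of them members. Ccl17 had 544 UMIs in 95 barcodes, 15 of them members. Xcl1, the ligand of Xcr1, had 1081 UMIs in 180 barcodes of late db/db, 5 of them members. It had 13 UMIs in the intervention library, 184 in early db/db and 12 in the control. Ccr4, the receptor for Ccl17 and Ccl22, had 75 UMIs in 55 barcodes of late db/db and in 0 members, against 1 UMI in the intervention library, 2 in early db/db and 0 in the control. The late library also had far more T gate cells, and the part of their number in these sums was not tested.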
